A study of Mus musculus with 7 samples.

Results

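The genes described here are 9 genes of the integrated stress response (Atf4, Ddit3, Xbp1, Trib3, Chac1, Herpud1, Asns, Sesn2 and Ddit4), looked up by symbol in the deposited expression table and followed in satellite cells, the stem cells of skeletal muscle. Each gene was kept if the array annotation listed a probe set for that gene alone. By this rule 8 of the 9 genes were measured, with 1 probe set each, out of 13287 genes in the table. Trib3, a pseudokinase gene induced by ATF4 and CHOP, had no such probe set in the filtered table and is reported as absent. All 8 measured genes passed the filter on dim probe sets, as did 9944 genes in all.

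The 7 arrays held cells of Tg:Pax7-nGFP mice, in which Pax7 regulatory sequences drive a nuclear GFP, taken at D4PM (4 days post mortem, 3 arrays), at D2PM (2 days post mortem, 2 arrays) and from living old mice (2 arrays). All cells were freed from limb muscle by enzyme digestion and sorted by FACS on GFP, and values are log2 expression after RMA normalisation. The labels call the living mice adult and give 24 to 26 months, whereas the title of the data set says young adult and its design text says old but counts in weeks. The labels give no age for the post-mortem mice, and a legend of the study gives the mice of its post-mortem comparison an age in weeks, so time after death and the age of the mice cannot be told apart in any comparison with old cells. Whether each array held cells of its own mouse is not given in the sources used here, so the p-values refer to the spread among arrays, which may be technical.

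The integrated stress response is a route by which cells slow protein synthesis. Kinases that sense misfolded protein in the endoplasmic reticulum (ER), lack of amino acids, double-stranded RNA or lack of haem phosphorylate the initiation factor eIF2, which lowers translation in general while raising that of Atf4 mRNA. ATF4 then induces genes of amino acid supply and redox balance, and with prolonged stress Ddit3, which encodes CHOP. XBP1 and HERPUD1 belong to the neighbouring response to unfolded protein in the ER, and SESN2 and DDIT4 (REDD1) restrain the growth kinase mTORC1. In satellite cells phosphorylation of eIF2 is known as a feature of quiescence. The arrays measured mRNA, and therefore neither the translation of Atf4 nor the splicing of Xbp1.

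Among the 8 measured genes, Ddit4 was more than doubled on both days post mortem, Ddit3 was higher on both days by a smaller margin, and Sesn2 was higher at D2PM. The call of Ddit4 held whichever array was left out, while those of Ddit3 and Sesn2 ended without some single arrays. Atf4 itself, Xbp1, Herpud1, Chac1 and Asns did not pass the test in any comparison (limma, Benjamini-Hochberg adjusted p under 0.05 over 9944 genes). At D4PM against old cells 2 of the 8 genes were higher and 0 lower, where 12.4% of all genes tested were higher and 15.5% lower. At D2PM against old cells 3 of the 8 were higher and 0 lower, where 10.3% of all genes were higher and 9.11% lower. With the mean of both days set against old cells, the same 3 genes (Ddit3, Ddit4 and Sesn2) were higher and 0 lower, where 14.4% of all genes were higher and 14.7% lower. Fewer cells of a type and less RNA per cell cannot be told apart in such bulk samples. The comparisons share the old arrays, and so are not independent of each other.

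**Figure D1:**
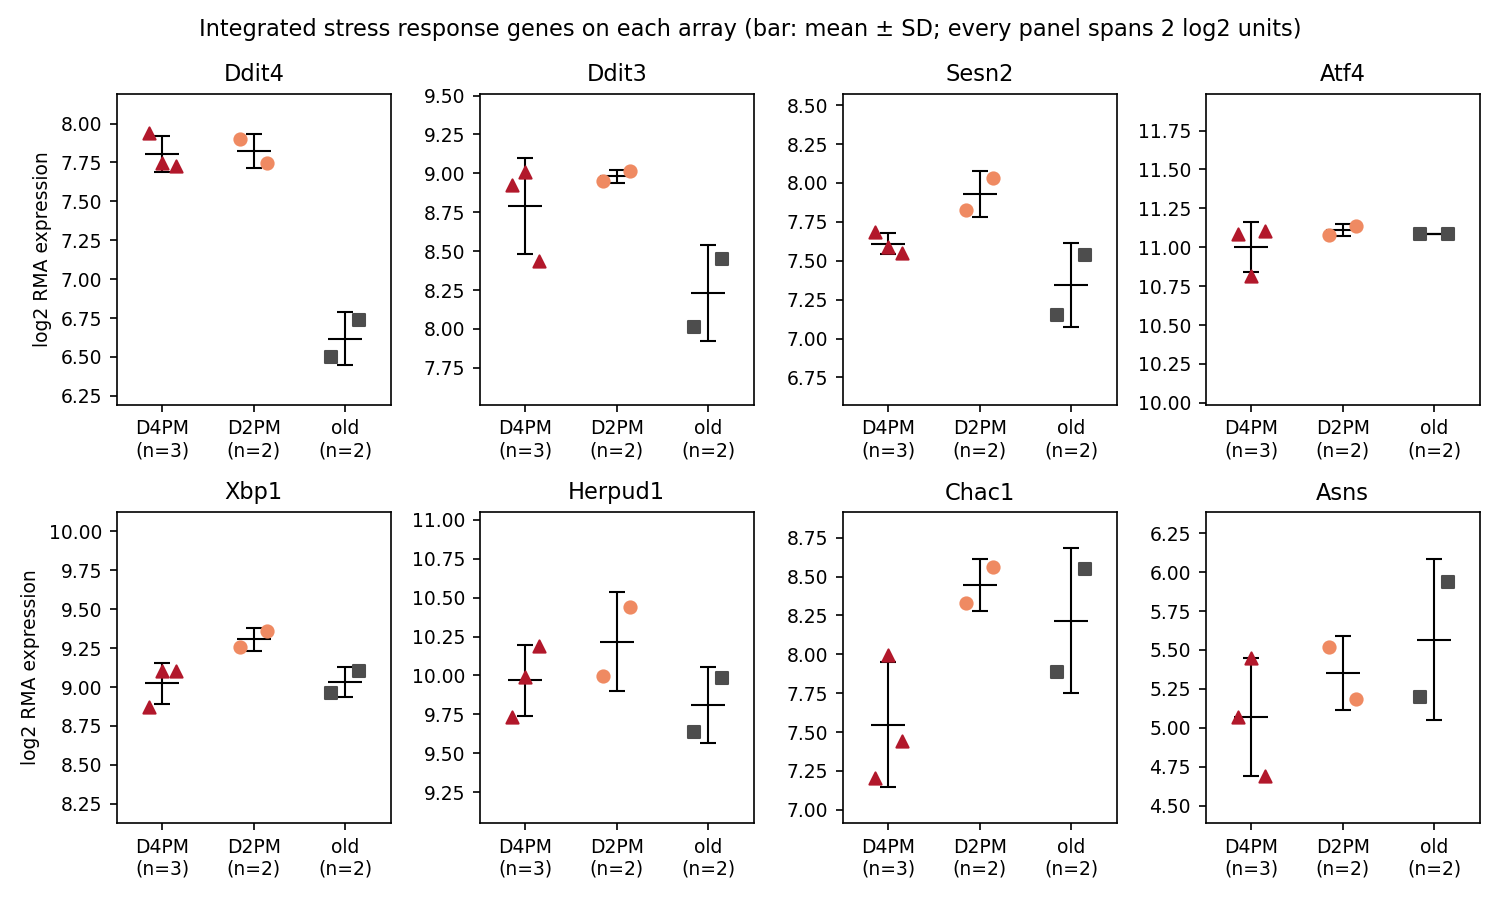
Log2 RMA expression (y axis) of the 8 measured genes on each array, with 1 point per array for D4PM (triangles, n = 3), D2PM (circles, n = 2) and old cells (squares, n = 2) and the mean ± SD as black bars; every panel spans 2 log2 units. The post-mortem arrays of Ddit4 lie between 7.73 and 7.94, above both old arrays, while those of Atf4 lie between 10.81 and 11.14 and overlap the old arrays.

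Ddit4 (chr10:59949675-59951770, GRCm38.p6) encodes REDD1, a stress-induced inhibitor of mTORC1. Its log2 level was 7.94, 7.75 and 7.73 on the D4PM arrays and 7.90 and 7.75 on the D2PM arrays, against 6.50 and 6.74 on the old arrays. All post-mortem arrays lay about a log2 unit above both old arrays, and the days overlapped each other. The fitted difference from old cells was 1.19 at D4PM (standard error 0.14, adjusted p = 1.76e-04, 2.28-fold) and 1.21 at D2PM (standard error 0.15, adjusted p = 5.55e-04, 2.31-fold). The difference between D4PM and D2PM was -0.02, with a 95% confidence interval of -0.32 to 0.28. The call of Ddit4 against old cells held on both days whichever array was left out, with differences of 1.07 to 1.31 at D4PM and 1.09 to 1.33 at D2PM.

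Sesn2 (chr4:132492804-132510456) encodes sestrin 2, a leucine sensor that also acts on mTORC1. Sesn2 stood at a log2 level of 7.68, 7.59 and 7.55 on the D4PM arrays and 7.82 and 8.03 on the D2PM arrays, against 7.15 and 7.54 on the old arrays. The D2PM arrays were the highest and the D4PM arrays intermediate, with the lowest D4PM array just above the higher old array. The difference from old cells was 0.58 at D2PM (standard error 0.16, adjusted p = 0.0258) and 0.26 at D4PM (95% confidence interval -0.05 to 0.58, adjusted p = 0.198). Between D4PM and D2PM the difference was -0.32 (unadjusted p = 0.0494, adjusted p = 0.634), so a change between the days did not pass the test. The call at D2PM ended without old replicate 1 (0.39, adjusted p = 0.139), D2PM replicate 1 (0.69, 0.0986) or D2PM replicate 2 (0.48, 0.175), and that for both days together ended without any of these or D4PM replicate 1, with median centring of the arrays and with the 5 post-mortem arrays as 1 group.

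Ddit3 (chr10:127290793-127296291) encodes CHOP, a transcription factor of the C/EBP family that acts late in the response and can promote cell death. The log2 level of Ddit3 was 8.93, 9.01 and 8.44 on the D4PM arrays and 8.95 and 9.01 on the D2PM arrays, against 8.02 and 8.45 on the old arrays. Of the 5 post-mortem arrays, 4 lay close together near 9, and D4PM replicate 3 lay at the level of the higher old array. The difference from old cells was 0.56 at D4PM (standard error 0.19, adjusted p = 0.0425, 1.48-fold) and 0.75 at D2PM (standard error 0.20, adjusted p = 0.0253, 1.68-fold). The difference between D4PM and D2PM was -0.19 (95% confidence interval -0.60 to 0.22). The call at D4PM held in 1 of 7 fits that each left out an array, the one without D4PM replicate 3, and ended without any other array (0.34 to 0.78); it also ended with median centring (0.50, adjusted p = 0.0578) and with array weights (0.50, 0.0745). At D2PM, and for both days together, it ended without either old or either D2PM array, with differences of 0.53 to 0.97 and 0.44 to 0.87.

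Atf4 encodes the transcription factor at the centre of the response. On the log2 scale Atf4 was at 11.08, 10.81 and 11.10 on the D4PM arrays and 11.08 and 11.14 on the D2PM arrays, against 11.08 and 11.09 on the old arrays. The 3 groups overlapped. The 95% confidence interval of the difference from old cells was -0.37 to 0.20 at D4PM and -0.29 to 0.34 at D2PM, so these arrays leave a change within those bounds possible.

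Xbp1 encodes a transcription factor of ER folding capacity, whose mRNA is spliced by the sensor kinase encoded by Ern1. Xbp1 had a log2 level of 8.87, 9.10 and 9.10 on the D4PM arrays and 9.26 and 9.36 on the D2PM arrays, against 8.96 and 9.10 on the old arrays. The D2PM arrays lay above all others. The difference from old cells was 0.27 at D2PM (95% confidence interval -0.04 to 0.59, adjusted p = 0.209) and -0.01 at D4PM (-0.29 to 0.28), and neither passed the test. D4PM replicates 2 and 3 and old replicate 2 carried the same value to the last deposited digit, as arrays can after RMA: 46.8% of all probe sets had a value shared by 2 or more arrays.

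Chac1, Asns and Herpud1 stand for what ATF4 and the ER response switch on. Chac1 encodes an enzyme that degrades glutathione. Chac1 had a log2 level of 7.21, 7.99 and 7.44 on the D4PM arrays and 8.33 and 8.56 on the D2PM arrays, against 7.89 and 8.55 on the old arrays. The D4PM arrays lay below both D2PM arrays, and 1 of them lay above the lower old array. The difference between D4PM and D2PM was -0.90 (standard error 0.24, 95% confidence interval -1.41 to -0.38, unadjusted p = 0.00271), the one with the lowest unadjusted p of the 8 genes between the days, but its adjusted p was 0.325. Against old cells Chac1 was at -0.67 at D4PM (adjusted p = 0.0544) and 0.23 at D2PM (adjusted p = 0.564). The D4PM value passed in 6 of 16 other settings and ran from -1.001 to -0.34 over them. It passed with the stricter signal filter (50th percentile), with median centring, with array weights and without D4PM replicate 2 (-0.89, adjusted p = 0.0166). It did not pass with a trended and robust variance prior (adjusted p = 0.0866) or without D4PM replicate 1 (-0.50, adjusted p = 0.163). The value was -1.001 without old replicate 1 and -0.34 without old replicate 2. With the replicate number as a block Chac1 was at -0.62 at D4PM against old cells (adjusted p = 0.0155) and at -0.85 between the days (0.0374). D4PM replicate 3 is the one array of its number, so that fit takes no difference from it. Without that array and without the block, neither difference of Chac1 passed the test.

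Asns encodes asparagine synthetase. Asns reached a log2 level of 5.07, 5.45 and 4.69 on the D4PM arrays and 5.52 and 5.18 on the D2PM arrays, against 5.20 and 5.93 on the old arrays. The groups overlapped, and with a mean of 5.29 the gene lay just above the filter value of 5.12. The differences from old cells were -0.50 at D4PM (95% confidence interval -1.03 to 0.03) and -0.22 at D2PM (-0.80 to 0.37). Herpud1 encodes a membrane protein of ER-associated degradation. Herpud1 was at a log2 level of 9.73, 9.99 and 10.19 on the D4PM arrays and 9.99 and 10.44 on the D2PM arrays, against 9.64 and 9.99 on the old arrays. The lower D2PM array barely cleared the higher old array, and the D4PM arrays spread over both. The differences from old cells were 0.16 at D4PM (-0.24 to 0.56) and 0.41 at D2PM (-0.03 to 0.84, adjusted p = 0.180).

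The promoters of these genes were searched because ATF4 binds DNA as a dimer with C/EBP proteins at a composite C/EBP-ATF element. The 250 bases before the start site were read from RefSeq (GRCm38.p6), where all 9 genes had an entry, and searched on both strands for TGATGNAA, the composite element. This stretch was in 3 of the 9 promoters (Asns, Chac1 and Herpud1) and in 3.45% of 32851 mouse promoter entries of the same length. No match to the cAMP response element TGACGTCA (1.55% of entries) or to the unfolded protein response element TGACGTGG (0.563%) was in the 9 windows. The same held for the ER stress element in the form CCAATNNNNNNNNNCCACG (0.113%). This says only that these letters are not in this stretch. Other forms of the 4 elements were not searched for, and the windows may hold them. No match overlapped another. The windows of Ddit3, Ddit4 and Sesn2 held no match to the composite element, where only 3.45% of all entries held one. Whether a match goes with a change in level was not tested. A match describes the letters and not binding. The 3 promoters with a match and that of Ddit4, the gene with the largest difference, are shown 5′ to 3′, with the composite element in capitals, which reads TTGCATCA where it lies on the other strand.
Chac1: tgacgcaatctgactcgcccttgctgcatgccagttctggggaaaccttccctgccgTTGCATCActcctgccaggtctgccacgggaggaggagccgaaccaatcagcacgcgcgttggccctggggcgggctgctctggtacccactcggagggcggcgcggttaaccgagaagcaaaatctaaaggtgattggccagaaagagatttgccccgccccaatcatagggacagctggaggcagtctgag
Herpud1: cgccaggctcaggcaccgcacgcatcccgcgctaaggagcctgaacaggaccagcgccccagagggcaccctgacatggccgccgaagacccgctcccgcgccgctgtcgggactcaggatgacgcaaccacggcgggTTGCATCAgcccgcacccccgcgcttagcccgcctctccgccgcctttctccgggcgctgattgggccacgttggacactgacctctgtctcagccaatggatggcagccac
Asns: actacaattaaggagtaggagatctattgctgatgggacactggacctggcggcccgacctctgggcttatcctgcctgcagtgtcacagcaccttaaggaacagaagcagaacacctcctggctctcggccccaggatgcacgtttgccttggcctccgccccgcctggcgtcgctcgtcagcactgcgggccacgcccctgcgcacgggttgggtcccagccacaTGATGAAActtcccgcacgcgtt
Ddit4: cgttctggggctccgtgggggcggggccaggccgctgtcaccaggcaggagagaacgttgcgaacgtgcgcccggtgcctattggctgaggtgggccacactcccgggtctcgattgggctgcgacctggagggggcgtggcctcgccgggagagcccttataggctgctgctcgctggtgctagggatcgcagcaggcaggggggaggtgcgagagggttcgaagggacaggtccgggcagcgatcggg
The Chac1 stretch is chr2:119350992-119351241 on the plus strand, and its element lies 193 to 186 bases before the start site. The Herpud1 stretch is chr8:94386179-94386428 on the plus strand, with the element 112 to 105 bases before the start. The Asns stretch is chr6:7693210-7693459 on the minus strand, with the element 23 to 16 bases before the start. The Ddit4 stretch is chr10:59951771-59952020 on the minus strand and has no match to any of the 4 motifs.

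Between the days, all 8 genes had a D4PM level below their D2PM level in the fitted means, with a median difference of -0.26, where 56.6% of all genes were below 0 and their median was -0.03. With a second quantile normalisation, or with the replicate number as a block, Ddit4 turned to the other side of 0 (0.05 and 0.02). None of the 8 passed the test of that difference, and 0.191% of all genes did. An unadjusted p from limma under 0.05 was found for 2 of the 8 genes and for 772 of the 9944 genes tested. In Chac1, Sesn2 and Xbp1 all D4PM arrays lay below both D2PM arrays, as did 15.6% of all genes. At D2PM 5 of the 8 genes (Ddit3, Ddit4, Herpud1, Sesn2 and Xbp1) had both arrays above both old arrays, as did 31.6% of all genes. At D4PM 2 genes did (Ddit4 and Sesn2, against 26.6% of all genes), and over both days the same 2 did (against 22.8%).

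**Figure D2:**
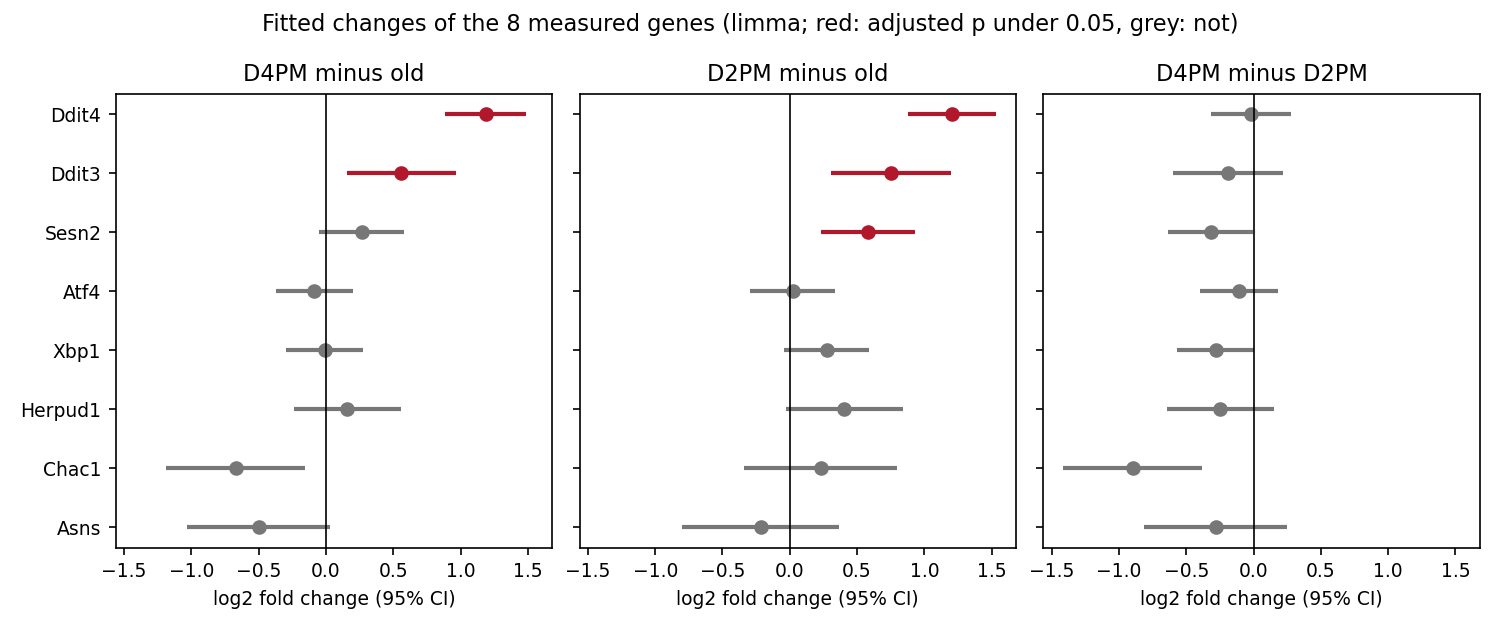
Log2 fold change (x axis, point) with its 95% confidence interval (line) for the 8 measured genes, for D4PM minus old, D2PM minus old and D4PM minus D2PM, in red where the adjusted p from limma is under 0.05. Ddit4 stands at 1.19 and 1.21 above old cells on the 2 days, and every point of the right panel lies below 0, with Chac1 at -0.90.

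The 2 old arrays differed from each other in these genes. All 8 were higher on old replicate 2 than on old replicate 1, as were 51.6% of all genes tested, by 0.74 in Asns, 0.66 in Chac1, 0.43 in Ddit3, 0.38 in Sesn2, 0.35 in Herpud1, 0.24 in Ddit4, 0.14 in Xbp1 and under 0.01 in Atf4. On the same 2 arrays, replicate 2 against replicate 1, the mean of 5 macrophage and monocyte markers was 5.93 against 6.59, that of 17 endothelial markers 5.77 against 6.40 and that of 6 tendon and Schwann markers 5.46 against 6.09. Likewise 9 fibroadipogenic markers averaged 7.55 against 8.08, 11 myofibre markers 7.16 against 7.54 and 11 satellite cell markers 9.83 against 9.94. The part of these other cells in the difference was not tested.

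Over 11 satellite cell markers tested, Pax7 and Myf5 among them, the mean level was 9.81 to 9.98 at D4PM and 9.86 to 9.92 at D2PM, against 9.83 to 9.94 in old cells. Of these 11, Calcr, Cd34 and Spry1 were higher over both days and Myod1 and Vcam1 were lower. The others did not pass the test, with Pax7 at 0.30, Myf5 at 0.22, Des at 0.16, Cdh15 at 0.13, Itga7 at -0.31 and Sdc4 at -0.37. The mean over 17 endothelial markers was 6.71 to 7.27 at D4PM and 6.72 to 6.73 at D2PM, against 5.77 to 6.40 in old cells (10 of 17 higher in post-mortem cells). That over 11 myofibre markers was 8.28 to 8.63 at D4PM and 8.37 to 8.55 at D2PM, against 7.16 to 7.54 in old cells (10 of 11 higher). Of 6 markers of tendon and Schwann cells 4 were higher (6.11 to 6.64 at D4PM and 6.37 to 6.53 at D2PM, against 5.46 to 6.09 in old cells), and of 5 markers of macrophages and monocytes 1 was lower. The mean over 9 fibroadipogenic markers was 7.62 to 8.07 at D4PM and 8.19 to 8.33 at D2PM, against 7.55 to 8.08 in old cells. None of these 9 was called over both days or at D4PM, but 2 were higher at D2PM (Col1a2, 0.59, adjusted p = 0.0355, and Lum, 0.89, adjusted p = 0.0294). The lymphocyte markers were absent or under the filter. The endothelial, myofibre, tendon and Schwann markers thus moved with the same contrast as Ddit4, Ddit3 and Sesn2. The fibroadipogenic mean was above both old arrays at D2PM, and Sesn2 was called at D2PM and over both days. The same contrasts apply to the pathway genes given next, and the part of these markers in the differences was not tested.

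Around the 9 genes, 12 lists of pathway genes (116 genes, 98 tested) were followed. With both days against old cells, 10 of the 98 were higher and 25 lower, or 35.7% in all, where 29.0% of all genes tested were called (14.4% higher and 14.7% lower). The median difference was -0.13 where that of all genes was 0.00. At D4PM 8 were higher and 26 lower, a share of 34.7% where that of all genes was 27.9%. At D2PM 10 were higher and 9 lower, a share of 19.4% that equals the 19.4% of all genes. Between the days 0 differed, as against 0.191% of all genes. The same shares of all genes apply to the counts of each list below.

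Upstream, the 6 genes of eIF2 kinases and phosphatase subunits held 1 gene that was higher and 1 that was lower. Ppp1r15a encodes GADD34, which brings a phosphatase to eIF2 and so ends the response. Ppp1r15a was at a log2 level of 11.88, 11.81 and 11.74 on the D4PM arrays and 11.13 and 11.33 on the D2PM arrays, against 10.61 and 10.14 on the old arrays, so that the 3 groups did not overlap. The difference from old cells over both days was 1.15 (adjusted p = 2.58e-04), and that between D4PM and D2PM was 0.58 (adjusted p = 0.334). Eif2ak4 (GCN2, the kinase that senses uncharged tRNA) was lower by the test, at -0.46 (adjusted p = 0.0181; the call ended without either old or either D2PM array, at -0.42 to -0.50), and Eif2ak3 (PERK, the kinase of the ER) was at 0.36 (adjusted p = 0.0637). Of 7 genes of eIF2 and its exchange factor eIF2B 1 was lower, Eif2b3 at -0.51 (adjusted p = 0.0330), with Eif2b2 at 0.44 and Eif2b5 at -0.25. The call of Eif2b3 held without old replicate 1 or D4PM replicate 2 and ended without any other array (-0.25 to -0.55).

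Of 8 transcription factors that act with or after ATF4, 3 were higher and 2 lower over both days. Atf3, which is induced by ATF4 and by many other stresses, had a log2 level of 12.50, 12.65 and 12.58 at D4PM and 12.33 and 12.26 at D2PM, against 11.13 and 10.72 in old cells. The difference over both days was 1.51 (adjusted p = 2.75e-05), and that of Jun, a subunit of AP-1, was 1.33 (adjusted p = 8.38e-05). Nupr1 was higher by 0.38 (adjusted p = 0.0466), and Nfe2l2 (NRF2) and Atf5 were lower, at -0.33 (0.0457) and -0.44 (0.0233). Without either old array or either D2PM array the list held 2 genes that were higher, Atf3 and Jun, and 0 that were lower. None of 4 secreted products passed the test, with Stc2 at 0.42, Vldlr at -0.35 and Fgf21 at 0.18.

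The genes that supply amino acids to translation did not rise as a group. Of 11 genes of aminoacyl-tRNA synthetases and the tRNA exporter Xpot, which charge tRNAs and carry them out of the nucleus, 0 were higher and 8 lower over both days, with a median of -0.61. At D4PM 8 of the 11 were lower (15.5% of all genes) and at D2PM 2, Iars and Eprs (9.11% of all genes). Over both days 14.7% of all genes were lower. Iars was at 8.78, 8.74 and 8.40 at D4PM and 8.99 and 8.91 at D2PM, against 9.46 and 10.08 in old cells, a difference over both days of -0.98 (adjusted p = 0.00187). Eprs was at -0.82 (adjusted p = 0.00151) and Xpot at -0.80 (adjusted p = 0.00394), while Sars had a value of 0.19 that did not pass. All 11 genes were higher on old replicate 2 than on old replicate 1, as were 51.6% of all genes, and 6 of them had all post-mortem arrays below both old arrays, as did 23.2% of all genes. The count of 8 fell to 1 (Eprs) without old replicate 2 (Iars -0.66, Xpot -0.54), to 3 without either D2PM array and to 5 without D4PM replicate 1.

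**Figure D3:**
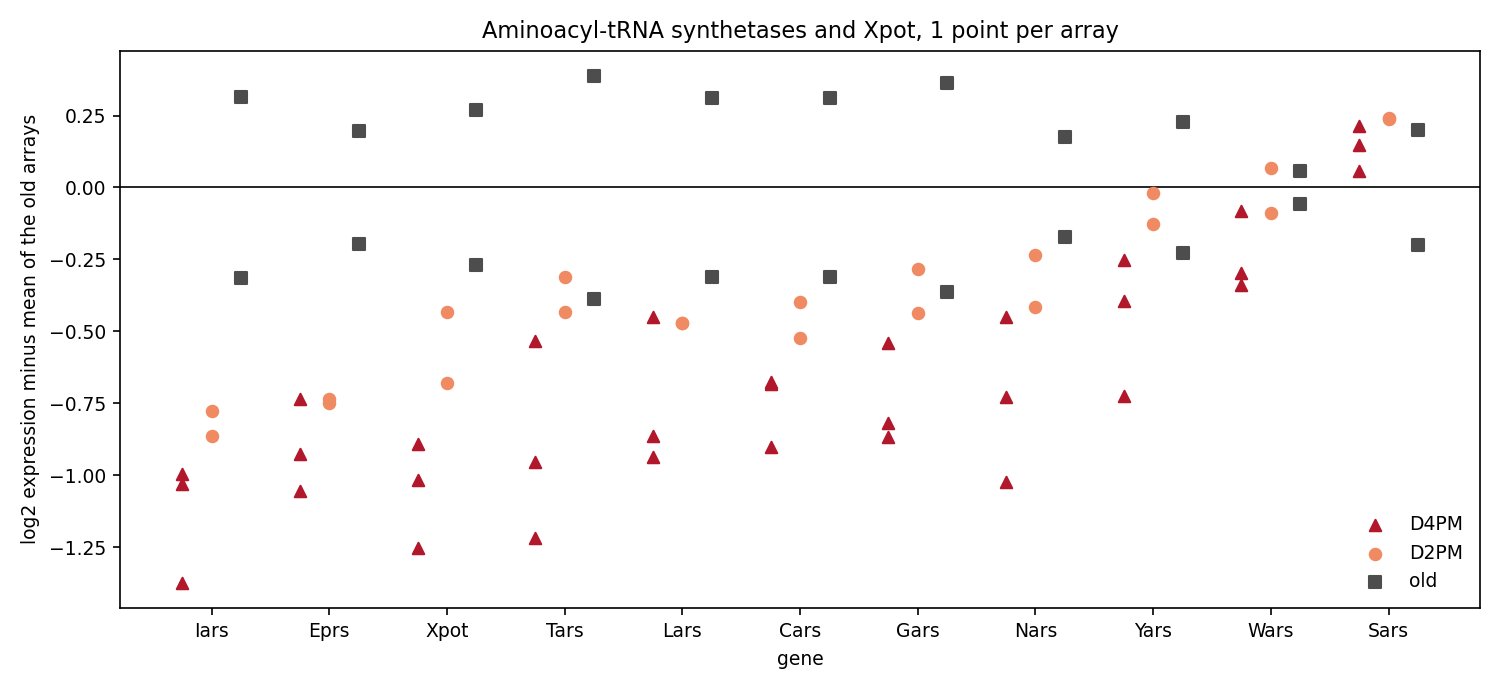
Log2 expression minus the mean of the 2 old arrays (y axis) for 10 aminoacyl-tRNA synthetase genes and Xpot (x axis), with 1 point per array for D4PM (triangles), D2PM (circles) and old cells (squares). Most post-mortem points lie below 0, as in Iars and Eprs (-0.98 and -0.82 over both days), and the higher old point of every gene is old replicate 2.

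Of 10 genes of amino acid and one-carbon synthesis 1 was higher, Got1, a transaminase, at 0.65 (adjusted p = 0.0148; the call ended without either old array or D2PM replicate 2, at 0.48 to 0.82), and 0 were lower, with Mthfd2 at -0.44 and Aldh18a1 at -0.40. At D4PM Mthfd2, a mitochondrial folate enzyme, was lower by the test (-0.73, adjusted p = 0.0145), and at D2PM Psph, an enzyme of serine synthesis, was higher (0.46, adjusted p = 0.0475). Of 7 amino acid transporters 2 were lower. Slc1a5, a glutamine transporter, was at 7.49, 7.26 and 7.12 at D4PM and 7.30 and 7.49 at D2PM, against 8.57 and 8.45 in old cells, a difference of -1.17 (adjusted p = 1.43e-04). Slc7a1, a transporter of cationic amino acids, was at -0.72 (adjusted p = 0.0324) over both days, and Slc38a2 was at -0.29. The call of Slc7a1 ended without old replicate 2 (-0.25), either D2PM array or D4PM replicate 1 (-0.64 to -0.73), and that of Slc1a5 held without any single array.

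In the ER branch, 4 of 7 stress sensors were lower over both days and 0 higher, with a median of -0.39. Of all genes tested 14.7% were lower and 14.4% higher. Ern1 encodes IRE1, the kinase and nuclease that splices Xbp1. It was at 7.22, 6.92 and 7.19 at D4PM and 7.06 and 7.15 at D2PM, against 7.82 and 8.04 in old cells, a difference of -0.82 (adjusted p = 9.49e-04). Atf6 and Creb3l1, which encode factors cut from the ER or Golgi membrane under stress, were at -0.76 (adjusted p = 0.00121) and -0.87 (adjusted p = 0.00227). The 14 ER chaperones and folding enzymes centred near 0 (median -0.04), with 1 of them lower (Dnajc3, -0.50, adjusted p = 0.0118), Hyou1 at -0.32 and Manf at 0.28. At D4PM Hyou1, another chaperone, was lower by the test as well (-0.47, adjusted p = 0.0215). Hspa5 (BiP), the main chaperone of the ER, was at 11.81, 11.66 and 11.81 at D4PM and 11.88 and 11.84 at D2PM, against 11.68 and 11.93 in old cells. Of 7 genes of ER-associated degradation 2 were lower, Edem1 at -1.11 (adjusted p = 2.19e-04) and Ubxn4 at -0.53 (0.00676), and Derl2 was higher at 0.48 (0.0365). Without old replicate 2 the 4 lower sensors became 2 (Ern1 and Atf6, with Creb3l1 at -0.685), and Dnajc3 (-0.43) and Ubxn4 (-0.44) lost their calls. Ern1, Atf6 and Edem1 kept theirs without any single array, while that of Derl2 held only without D4PM replicate 1 or 2 (0.33 to 0.62 otherwise) and ended with either other scaling of the arrays (0.43 and 0.42).

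Beside Sesn2 and Ddit4, 10 further genes of sestrins, REDD and mTORC1 were tested, of which 2 were higher and 3 lower. Sesn1, a sestrin known as a target of p53 and FOXO, was at 8.79, 8.59 and 8.79 at D4PM and 8.67 and 8.59 at D2PM, against 7.81 and 7.66 in old cells, a difference of 0.95 (adjusted p = 2.74e-04). Sesn3 was higher by 0.38 (adjusted p = 0.0444). Sesn1, Sesn2 and Sesn3 were thus higher over both days by the test, as were 14.4% of all genes. At D4PM alone Sesn2 (0.26, adjusted p = 0.198) and Sesn3 (0.29, adjusted p = 0.149) did not pass. Tsc1, Rptor and Eif4ebp1, of the mTORC1 pathway, were lower over both days, as were 14.7% of all genes. They stood at -0.41, -0.38 and -0.50 (adjusted p = 0.0285, 0.0414 and 0.0215). Sesn1 kept its call without any single array, whereas without old replicate 2 or D2PM replicate 1 it was the one gene of the list called, with Tsc1 at -0.27 and -0.39 and Eif4ebp1 at -0.26 and -0.48. Of 7 genes of the mitochondrial stress relay, the chaperonin genes Hspd1 and Hspe1 were higher, at 1.41 (adjusted p = 6.51e-04) and 1.09 (2.23e-04), and Hspa9, the mitochondrial Hsp70, was lower at -0.54 (0.0112), a call that ended without old replicate 2 (-0.36) or D2PM replicate 1 (-0.51). The calls of Hspd1 and Hspe1, each measured by its brighter of 2 probe sets, held without any single array, as did those of Ppp1r15a, Atf3 and Jun.

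**Figure D4:**
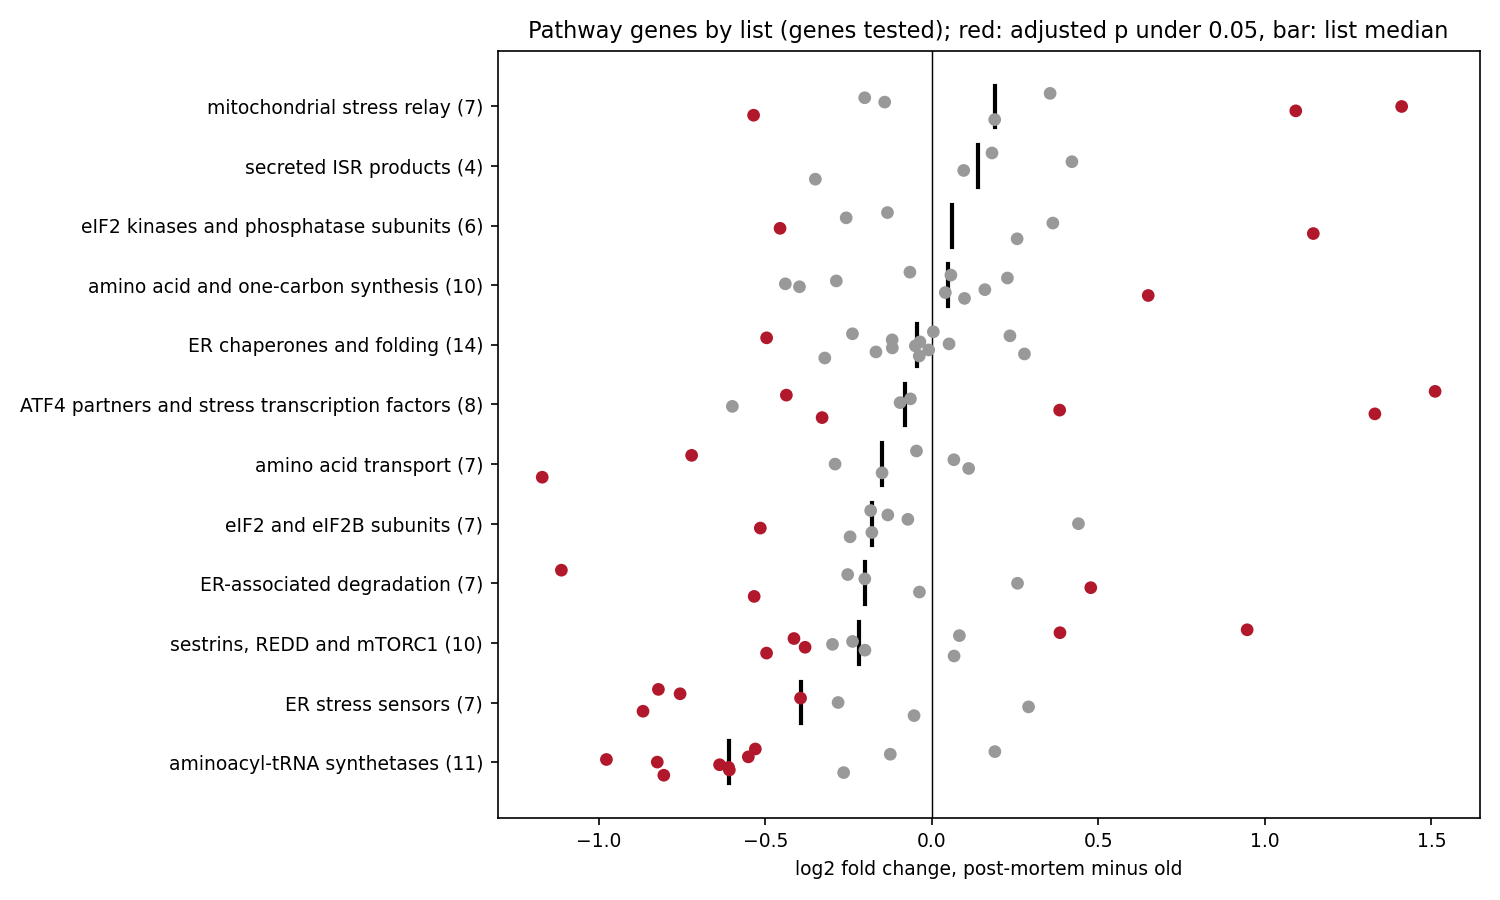
Log2 fold change of post-mortem (mean of D4PM and D2PM) minus old cells (x axis) for each gene tested in 12 lists (y axis, number tested in brackets), each gene a point, drawn red if limma's adjusted p was below 0.05, with black bars for the medians of the lists. Aminoacyl-tRNA synthetases have the lowest median (-0.61), and Atf3 (1.51), Hspd1 (1.41) and Ppp1r15a (1.15) stand at the right.

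The genes whose 7 arrays followed Ddit4 most closely were Grsf1, Tmem64 and Pde6d, with Pearson correlations of 0.995, 0.995 and 0.994 (description only, since the arrays share the 3 groups). Grsf1 binds RNA in mitochondria and Pde6d carries prenylated proteins. Among the 8 genes themselves, Ddit3 followed Sesn2 (0.855) and Ddit4 (0.847) over the 7 arrays, Xbp1 followed Herpud1 (0.847) and Chac1 (0.757), and Atf4 followed none of the others above 0.164.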

How the data were processed

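RNA of sorted cells was amplified with Ovation Pico V2 and run on GeneChip Mouse Gene ST arrays. The values that the authors deposited are on the log2 scale after RMA (background correction, quantile normalisation across arrays and one summary value per probe set); limma is also named in the submitters' processing notes. Probes that seemed not expressed and invariant probes had been removed at thresholds not given in the sources used here, so changes are shares of genes that vary, and a gene can be absent through that filter. Array medians lay between 6.11 and 6.19, and the table held 18675 probe sets.

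Of these, 14480 named a single gene in the array annotation, 774 several and 3421 were unlisted. Through Entrez identifiers 14425 matched RefSeq GRCm38.p6. Where a gene had several probe sets the brightest stood for it, as in Iars, Dnajc3, Hspd1 and Hspe1. Genes whose mean reached 5.12, the 25th percentile of probe sets, entered the test (9944 genes), which was limma 3.58.1 in R 4.3.3 on 3 group means with 4 residual degrees of freedom and Benjamini-Hochberg adjustment, as the methods name limma. Both days together means the average of the D4PM and D2PM means. The fit was also run on simulated data with independent values and fewer changed genes than here. That run does not show how often these calls are right. The number of arrays limits the precision. The members and lists were chosen with earlier results of these data known. Named genes are the 9 members and the 3 genes most correlated with the member that rose most. Of each list up to 3 genes are named, with the largest absolute moderated statistic for both days against old cells. Sars, Hspa5, Nupr1, Nfe2l2, Sesn3, Rptor, Psph and the single cell type markers were named after their values were seen. Alternatives changed the normalisation, filter, probe sets, variance prior, array weights, fold threshold, test, block and arrays used.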

Additional observations from a re-analysis of the deposited data

How the results depend on the processing

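Ddit4 against old cells kept its direction in every setting tried on both days. Its call ended only with Student's t-test (an ordinary t-test per gene, adjusted p = 0.0897 at D4PM and 0.194 at D2PM). Of 135 values of the 8 genes under other settings at D4PM against old cells, 113 kept their direction and side of the threshold, 11 lost and 6 gained the call, and 5 changed sign; at D2PM the counts were 118, 12, 0 and 5 of 135, between the days 137, 0, 1 and 5 of 143, and for both days together 126, 14, 0 and 3 of 143. No value that passed the test changed sign. With a further requirement of a log2 change of at least 1, 497 genes were called at D4PM, 369 at D2PM and 413 over both days (2770, 1931 and 2887 without it), of the 8 genes only Ddit4 (1 each). With Student's t-test 14, 15 and 1719 genes were called (2747, 2028 and 3606 at an unadjusted p under 0.05) and 0, 0 and 1 of the 8, and between the days 0 of all genes (692 unadjusted). Between the days 19 genes were called in all arrays and 2 in the post-mortem arrays alone. Leaving out each array in turn gave 911 to 2512 genes at D4PM (1 to 2 of the 8), 323 to 2054 at D2PM (1 to 3), 858 to 2814 over both days (1 to 3) and 0 to 21 between the days; the lowest counts were without old replicate 2, without D2PM replicate 1, without old replicate 2 and without either D2PM array. A lone array of a group is then assumed to vary like the others. The labels do not say whether same-numbered arrays are paired. Deviations of same-numbered arrays from their group means correlated at -0.08 to 0.05. In a group of 2 arrays these deviations mirror each other, so the values cannot settle whether the arrays were paired. In a fit that kept the replicate number as a block, 54 genes differed between the days (37 higher and 17 lower at D4PM). Of the 8 genes 1 was among them (Chac1), and Chac1 at D4PM against old cells gained its call. The block changed no other call of the 8 genes. That fit takes no difference from D4PM replicate 3, the one array of its number, and so is not separate from the fit without that array. Values near 0 that changed sign were, at D4PM against old cells, Xbp1 (0.0575 with a second quantile normalisation, -0.0766 to 0.0684 leaving out arrays), Herpud1 (-0.0147 to 0.33) and Atf4 (-0.14 to 0.0076). At D2PM they were Atf4 (-0.0481 with that normalisation, -0.0212 with median centring, -0.0045 to 0.0506 leaving out arrays), Chac1 (-0.10 to 0.56) and Asns (-0.58 to 0.15). Ddit4 between the days was 0.0457 with that normalisation, 0.0187 with the block and -0.0987 to 0.0571 leaving out arrays, and over both days Chac1 ran at -0.55 to 0.11, Asns at -0.73 to 0.0099 and Atf4 at -0.0568 to 0.0153. The cause of these shifts was not tested. For 36 named pathway genes, alternatives chosen after seeing the data gave 646 values, of which 564 kept their side, 71 lost and 11 gained the call, and 0 changed sign. No outlier could be looked for in groups of 2 or 3 arrays.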
